A study of Mus musculus with 17 samples.

Results

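Sympathetic ganglia of newborn mice homozygous for an activating Alk mutation (Hom) were set against ganglia of newborn heterozygotes (Het). Members were the arrays titled P0 and Hom (4 arrays) and those titled P0 and Het (4 arrays), 8 of the 17 arrays of the series, and they were compared over the 9973 of 17306 probe sets, 1 per gene, that exceeded a log2 value of 4 in at least 2 of the 17 arrays. All mice were C57BL/6. The mutant groups carried the knock-in allele F1178L of Alk, on both chromosomes in Hom and on 1 in Het, in which the mutated exon 23 lies between a LoxP and a Lox511 site. The Wt mice are labelled as wild type. Total RNA from pooled superior cervical and stellate ganglia was hybridised to Affymetrix Mouse Genome 430 2.0 arrays. Wt ganglia at P0 (4 arrays) are given beside the comparison, and Het (2 arrays) and Wt (3 arrays) ganglia at P18 enter at the end. No sample at P18 was Hom.

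The Alk protein is a receptor tyrosine kinase, made by sympathetic neurons and their precursors as they develop. The precursors leave the neural crest, settle beside the dorsal aorta, take up a noradrenergic identity and then divide, extend axons and form synapses. Activating mutations of this receptor occur in neuroblastoma, a childhood tumour of this lineage. The comparison asks what a second mutant allele changed in ganglia that already carried the first.

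The values are log2 expression levels, so a difference of 1 is a doubling on that scale. Markers of noradrenergic neurons were high on every array: Dbh, which encodes the enzyme that makes noradrenaline, lay between 12.33 and 12.40 on the Hom arrays and between 12.35 and 12.54 on the Het arrays, and Phox2a, a transcription factor of this lineage, between 11.69 and 11.81 in Hom and between 11.94 and 12.20 in Het. The Hom arrays resembled each other less than the Het arrays did. Each array's mean correlation with the others of its group ran from 0.951 to 0.970 in Hom, from 0.983 to 0.990 in Het and from 0.958 to 0.972 in Wt, and the median over genes of the SD within a group was 0.257 in Hom, 0.128 in Het and 0.218 in Wt. Hom replicates 10 and 12 stood apart, as earlier results of these data had shown. With both left out, the calls of Adamts3, Adh1, Cldn1, Clip4, Fam184b, Igfbp4, Iqgap2, Nolc1, Npy1r, Plxnb1, Rassf4, Scg3, Scn1a, Ss18 and Syt1, described below, were lost (limma, adjusted p between 0.0539 for Adh1 and 0.19 for Cldn1). The samples of each genotype were numbered in 1 block (Hom 9 to 12, Het 5 to 8, Wt 1 to 4), so that a litter or batch that ran with genotype cannot be told apart from it. The sources do not say whether each array of a group stands for its own animals, and the p-values therefore cover only the spread among arrays, part of which may be technical. They rest on 1 variance per gene shared by all groups of the series, P18 included. For genes that varied most in Hom, the tighter groups thus lower the error. Palmd, for example, had an SD of 1.17 in Hom, 0.08 in Het and 0.08 in Wt, and a standard error of 0.37.

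At an adjusted p under 0.05 (limma over all genes tested), 737 of the 9973 genes differed between Hom and Het ganglia, which is 7.39% of them. Of these, 413 genes (4.14%) were higher in Hom and 324 (3.25%) were lower. The rises were the larger changes: among the 191 genes that differed by at least 1 log2 unit, 144 were higher and 47 were lower in Hom. The values of all 4 Hom arrays lay above those of all 4 Het arrays for 744 genes (7.46%) and below them for 866 genes (8.68%), and among the 737 called genes 358 lay wholly above and 298 wholly below. The median difference over all genes was -0.01, and its standard error for a typical gene was 0.158. The direction split depended on scaling: with each array centred on its median 846 genes were called, of which 32.6% were higher in Hom, against 56.0% as deposited. Leaving out single arrays also moved the count. It fell to 481, 388, 384 and 387 without Het replicates 5, 6, 7 and 8 and to 352 without Hom replicate 9, and stood at 583 without Hom replicate 11. It came to 970 without Hom replicate 10, 911 without Hom replicate 12 and 1225 without both of these, and 279 of the 737 genes were called in all 8 fits that left out 1 array.

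**Figure D1:**
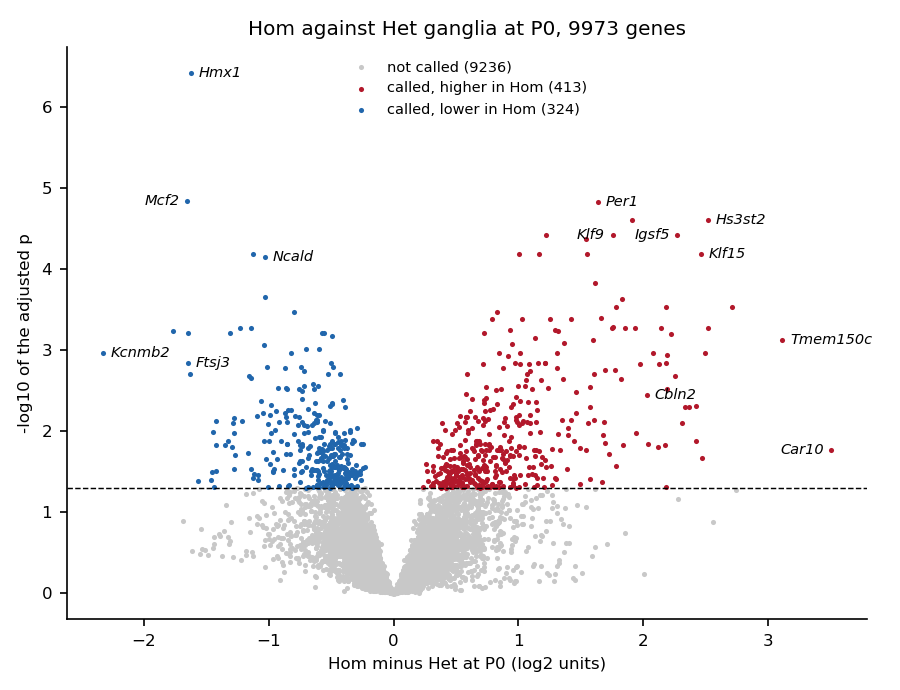
Difference between Hom and Het ganglia at P0 in log2 units (x axis) against the -log10 of the limma adjusted p (y axis) for 9973 genes, 1 point per gene, n = 4 arrays per group. The dashed line is an adjusted p of 0.05, and 413 red genes were called higher in Hom and 324 blue genes lower, with Hmx1 at the top.

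The genes fell into groups that differed in direction. Lists of pathways and cell types were compared by the share of their measured members that was called, beside the 4.14% and 3.25% of all genes. The noradrenergic list (9 of 20 lower, 0 higher) and the ribosome biogenesis list (10 of 32 lower, 0 higher) held only genes that fell among their calls, while the lists of synaptic organisers (5 of 17 higher), calcium sensors (4 of 14 higher) and the insulin-like growth factor axis (4 of 13 higher) held more rises than falls. No member of the mitosis list (0 of 57) or the DNA replication list (0 of 31) was called in either direction.

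**Figure D2:**
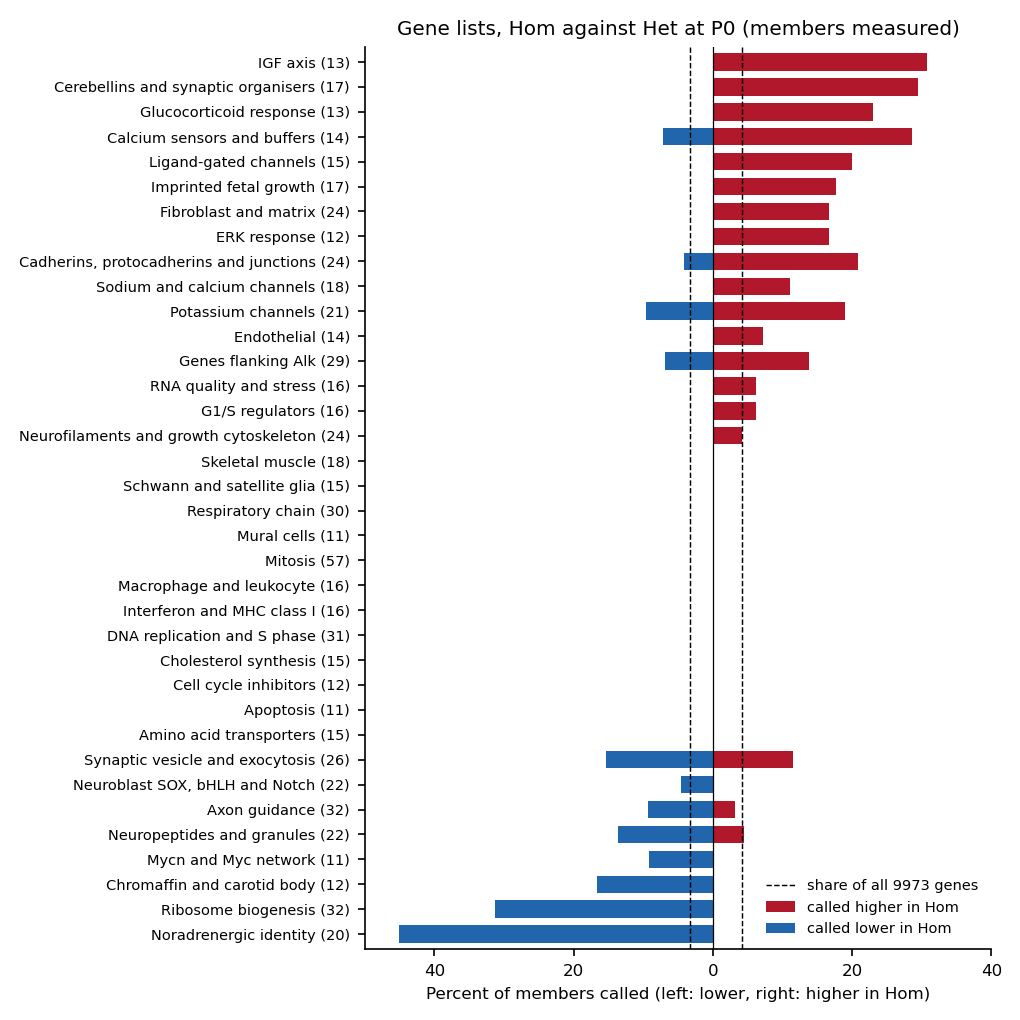
Percent of the measured members of each gene list called lower (blue, to the left) or higher (red, to the right) in Hom than in Het ganglia at P0, for the lists with at least 10 measured members, whose number stands in brackets. Dashed lines mark the share over all 9973 genes, 3.25% lower and 4.14% higher.

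The noradrenergic list held the gene with the smallest p of all. Hmx1, a homeobox factor of sympathetic neurons, stood at 8.90, 9.31, 8.98 and 8.86 in the 4 Hom arrays, at 10.51, 10.80, 10.62 and 10.60 in the 4 Het arrays and at a mean of 10.89 ± 0.12 (SD) in the 4 Wt arrays. It fell by 1.62 ± 0.10 (SE, adjusted p = 3.82e-07) in Hom against Het, while Het differed from Wt by -0.26 (adjusted p = 0.17). All 4 Hom arrays lay more than 1 log2 unit below every Het array. In bulk tissue, fewer cells of a type and less RNA per cell cannot be told apart.

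Of the enzymes and transporters of the noradrenaline pathway, Th, Ddc, Slc6a2, Gch1 and Slc18a2 were called in the same direction, while Dbh and Maoa were not called. Th, the rate-limiting enzyme, stood at 11.03, 11.66, 10.97 and 11.20 in Hom, against 11.81, 11.66, 11.88 and 11.74 in Het and 11.92, 12.24, 12.09 and 11.88 in Wt. Its fall of 0.56 ± 0.12 (adjusted p = 0.0146) left Hom replicate 10 just under the lowest Het array, and the call was lost without Hom replicate 9. Ddc, which decarboxylates the product of Th, fell by 0.82 ± 0.12 (adjusted p = 0.0011). Slc6a2, the noradrenaline reuptake transporter, stood at 8.63, 9.18, 9.18 and 9.41 in Hom, against 9.87, 10.10, 9.98 and 10.06 in Het. It fell by 0.90 ± 0.20 (adjusted p = 0.0135) with no overlap. The Wt mean of Slc6a2, 9.43, lay between those of Hom and Het, and Hom against Wt was not called (-0.33, adjusted p = 0.36). Gch1, which makes the cofactor of Th, and Slc18a2, the vesicular monoamine transporter, fell by 0.47 and 0.42 (adjusted p = 0.0146 and 0.0269), and both calls were lost in some of the fits without 1 array (adjusted p up to 0.0524 for Gch1 and 0.0906 for Slc18a2).

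Of the transcription factors of the list, Gata2 fell by 0.74 ± 0.12 (adjusted p = 0.00161) and lay between 8.58 and 9.25 in Hom, against 9.61 to 9.75 in Het. Phox2a fell by 0.29 ± 0.08 (adjusted p = 0.035), a call lost without each of 5 single arrays (Het 5, 7 and 8, Hom 9 and 11). Gata3 differed by -0.22 (adjusted p = 0.272), Isl1 by -0.18 (adjusted p = 0.132) and Hand2 by 0.06 (adjusted p = 0.775). Chgb, a granule protein of this list, fell by 0.76 ± 0.16 (adjusted p = 0.00841), and lay between 12.84 and 13.59 in Hom against 13.72 to 14.03 in Het. Its Wt mean, 13.39, lay between those of Hom and Het, and Hom against Wt was not called (-0.31, adjusted p = 0.269).

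The list did not move as a block. Dbh differed by -0.08 ± 0.09 (adjusted p = 0.645), Maoa, which degrades noradrenaline, by 0.03 ± 0.09 (adjusted p = 0.867) and the granule protein Chga by 0.00 ± 0.14 (adjusted p = 0.995). The median difference over the 20 genes was -0.43, against -0.01 over all genes tested. The summed level of the list ran from 15.68 to 16.01 in Hom, from 16.16 to 16.25 in Het and from 16.02 to 16.17 in Wt, so that the Hom arrays were the lowest. Leaving out Hom replicates 10 and 12 together gave 13 lower members and 0 higher ones, and leaving out Hom replicate 9 gave 5. The methods' t-test, which does not share information between genes, gave 1.

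**Figure D3:**
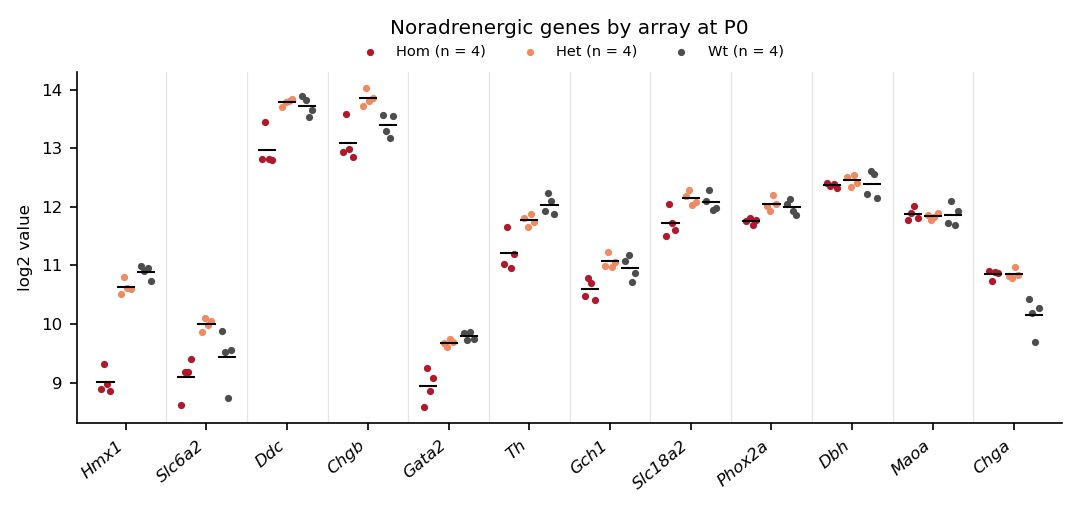
Log2 values of the 9 called noradrenergic genes, in order of their difference, and of Dbh, Maoa and Chga, which were not called, on each P0 array (points) with group means (lines), Hom left, Het in the middle and Wt right, n = 4 each. The Hom points of Hmx1, Ddc and Gata2 lie below those of Het and Wt, while those of Dbh overlap them.

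Promoter windows of the genes of this list were read for a motif. The called members had been picked from these same data, so their share is a description and not a test. The motif searched was the cAMP response element TGACGTCA, which reads the same on both strands and overlaps no CACGTG, the E-box searched below, in the windows printed. RefSeq windows (GRCm38.p6) from 250 bases before to 50 bases after each start were found for 7767 of 9545 named genes tested. The element stood in 1.79% of all 32851 windows and in 3.79% of the tested genes, and in the windows of Th, Chgb and Slc18a2, 3 of the 8 called noradrenergic genes with a window and 3 of the 16 of the list. It also stood before Hs3st2, 1 of the largest rises. The stretches below are the 120 bases around the element, all upstream of the start, with the element in capitals.
Th (chr7:142899996-142900115, minus strand): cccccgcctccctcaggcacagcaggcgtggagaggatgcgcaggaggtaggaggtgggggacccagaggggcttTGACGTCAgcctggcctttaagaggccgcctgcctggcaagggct
Chgb (chr2:132781514-132781633, plus strand): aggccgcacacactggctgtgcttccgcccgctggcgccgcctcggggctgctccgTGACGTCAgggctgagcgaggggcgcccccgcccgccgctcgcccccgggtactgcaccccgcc
Hs3st2 (chr7:121392171-121392290, plus strand): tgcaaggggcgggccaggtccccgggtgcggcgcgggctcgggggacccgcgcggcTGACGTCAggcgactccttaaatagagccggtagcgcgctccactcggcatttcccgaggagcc
Between the element and the start lay 37 bases in Th, 64 in Chgb and 61 in Hs3st2. Genes with the element thus changed in both directions, and among all called genes it stood in 3.88% of those higher and 3.46% of those lower in Hom, close to the 3.79% of the tested genes.

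Ribosome biogenesis was the other group of falls. The list holds the factors that transcribe ribosomal RNA and process it in the nucleolus. Ftsj3, an RNA methyltransferase of the nucleolus, stood at 5.38, 5.66, 6.37 and 5.83 in Hom, at 7.13, 7.41, 7.62 and 7.66 in Het and at 7.28, 6.85, 6.07 and 6.94 in Wt. It fell by 1.65 ± 0.26 (adjusted p = 0.00145), with no overlap between Hom and Het. Polr1b, a subunit of RNA polymerase I, stood at 5.33, 4.83, 5.38 and 3.97 in Hom, against 6.68, 5.97, 6.47 and 6.17 in Het. It fell by 1.45 ± 0.30 (adjusted p = 0.0102), again without overlap, and Hom replicate 12 was the lowest array.

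Polr1e, another subunit of the polymerase, fell by 0.73 ± 0.15, the helicase Ddx21 by 0.68 ± 0.16 and Tsr1, a factor of the small subunit, by 0.62 ± 0.12 (adjusted p = 0.00774, 0.016 and 0.00639). Nolc1 fell by 0.80 and Wdr12 by 0.53, and Wdr43, Wdr75 and Dkc1 by 0.51, 0.41 and 0.35. Of the 10 calls, those of Ftsj3, Polr1b, Polr1e, Tsr1 and Wdr43 held in all 8 fits without 1 array, and those of Nolc1, Wdr12 and Dkc1 were lost in 6 or 7 of them (adjusted p up to 0.0987, 0.116 and 0.0958). Those of Ddx21 and Wdr75 were lost without 2 single arrays each (Het 5 and Hom 9 for Ddx21, Het 6 and Hom 9 for Wdr75). The median over the 32 genes was -0.37, and all 4 Hom arrays lay below all 4 Het arrays for 15 of them, 46.9% of the list against 8.68% of all genes. Without Hom replicates 10 and 12 together 10 genes were lower, and without Hom replicate 9 there were 5. The methods' t-test gave 4.

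Mycn, the transcription factor amplified in aggressive neuroblastoma, fell as well. It stood at 8.33, 9.04, 8.63 and 8.70 in Hom, at 9.39, 9.64, 9.60 and 9.42 in Het and at 9.13, 9.39, 8.78 and 9.05 in Wt, and the difference was -0.84 ± 0.16 (adjusted p = 0.00547). The Het mean was the highest of the 3 genotypes, and Hom against Wt was not called (-0.42, adjusted p = 0.13). Of the 11 measured genes of the Myc network only Mycn was called, and none was called in the methods' t-test. The E-box CACGTG, the element that Myc proteins bind, stood in the windows of 8 of 30 ribosome biogenesis genes (26.7%), 2 of 10 called ones (Tsr1 and Wdr43), and in 11.8% of the tested genes.

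**Figure D4:**
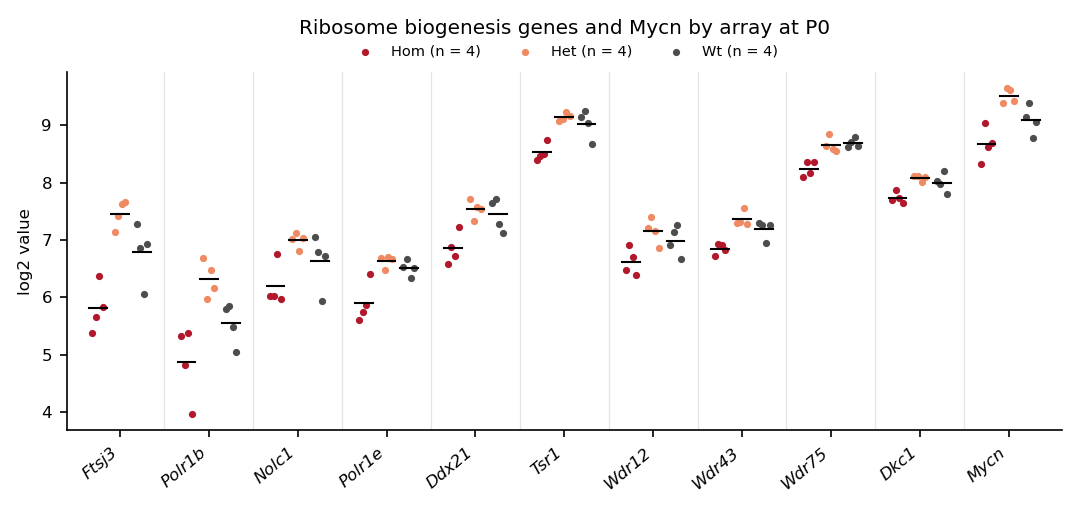
Log2 values of the 10 called ribosome biogenesis genes, in order of their difference, and of Mycn on each P0 array (points) with group means (lines), Hom left, Het in the middle and Wt right, n = 4 each. The Hom means lie below the Het means for every gene drawn.

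No member of the mitosis and DNA replication lists was called. Of the 57 mitosis genes 0 passed the test, with a median difference of -0.09, and of the 31 DNA replication genes 0 passed, with a median of -0.12. By limma, 6 and 2 genes had an unadjusted p under 0.05, and 38 and 25 differences were negative. Against Wt, 35 mitosis genes were called higher in Hom and 36 in Het (medians 0.88 and 0.99), beside 515 and 180 of all 9973 genes. For DNA replication, 6 and 7 were called higher than in Wt (medians 0.27 and 0.37). Ccnd3, a cyclin of the G1 phase, was the only called gene of 16 G1/S regulators and rose by 0.71 ± 0.18 (adjusted p = 0.0283). It lay between 6.98 and 7.27 in Hom and between 6.17 and 6.59 in Het, and the call was lost without each of 5 single arrays (Het 5, 7 and 8, Hom 9 and 11). Ccnd1 stood at 11.26, 11.75, 11.40 and 10.98 in Hom, against 11.71, 11.84, 11.90 and 11.75 in Het, a difference of -0.45 (adjusted p = 0.13).

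Of 17 synaptic organisers 5 rose and 0 fell. Cbln2, a cerebellin secreted into the synaptic cleft, stood at 11.30, 9.59, 11.15 and 11.01 in Hom, at 9.06, 8.63, 8.66 and 8.59 in Het and at 5.27, 3.75, 3.81 and 4.85 in Wt. It rose by 2.03 ± 0.36 in Hom against Het (adjusted p = 0.00355), and no Hom array overlapped a Het array, although Hom replicate 10 lay closer to Het than to the other Hom arrays. Het exceeded Wt by 4.31 (adjusted p = 6.48e-06), and whether the steps differed in size was not tested. Nlgn1, the adhesion protein neuroligin on the receiving side of synapses, stood at 8.58, 6.42, 8.07 and 7.39 in Hom, against 6.50, 5.91, 5.27 and 6.01 in Het. It rose by 1.69 ± 0.38 (adjusted p = 0.014), with Hom replicate 10 inside the Het range, and the call was lost without Het replicate 7. Flrt3, Lrrtm1 and Slitrk4, leucine-rich adhesion proteins, rose by 1.12, 0.91 and 0.80. Of these, only the call of Lrrtm1 held in all 8 fits without 1 array. The median over the 17 synaptic organisers was 0.39. They held 7 higher members without Hom replicate 10 and 2 without Het replicate 7, and 0 in the methods' t-test.

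Calcium sensors moved in both directions. Vsnl1, a neuronal calcium sensor, stood at 8.33, 6.79, 8.41 and 8.13 in Hom, at 5.97, 5.48, 5.04 and 5.18 in Het and at 4.33, 3.50, 3.08 and 4.80 in Wt. It rose by 2.50 ± 0.37 (adjusted p = 0.0011). Necab1, a calcium-binding protein of neurons, stood at 6.38, 4.70, 6.82 and 5.53 in Hom, against 4.18, 3.33, 2.94 and 3.28 in Het, and rose by 2.42 ± 0.45 (adjusted p = 0.00493). Its relative Necab2 rose by 0.98 ± 0.18 (adjusted p = 0.0038) and Caln1 by 1.15 ± 0.33 (adjusted p = 0.0462), a call lost without each of 7 single arrays. Ncald, neurocalcin, was the exception. It stood at 10.02, 9.85, 9.95 and 10.29 in Hom, at 11.12, 10.85, 11.12 and 11.16 in Het and at 11.77, 12.07, 11.64 and 11.73 in Wt, and it fell by 1.03 ± 0.11 in Hom against Het (adjusted p = 7.2e-05) and by 0.74 in Het against Wt (adjusted p = 0.00167). The 3 genotypes did not overlap for Ncald.

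Ion channels changed by subunit. Kcna5, a voltage-gated potassium channel, stood at 9.07, 8.14, 8.93 and 8.52 in Hom, at 6.77, 6.94, 5.92 and 6.29 in Het and at 4.63, 5.24, 6.40 and 4.66 in Wt. Its rise of 2.19 ± 0.34 (adjusted p = 0.00145) separated all Hom from all Het arrays. Kcnmb2, an auxiliary subunit of the large-conductance calcium-activated potassium channel, had the largest fall of all called genes. It stood at 3.15, 4.02, 2.40 and 4.23 in Hom, at 5.90, 5.17, 6.15 and 5.90 in Het and at 7.62, 7.36, 6.41 and 6.88 in Wt, and fell by 2.33 ± 0.35 (adjusted p = 0.0011). Of its Hom arrays 2 were below the log2 value of 4 that served as the filter.

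Dpp10 and Dpp6, auxiliary subunits of A-type potassium channels, rose by 1.03 and 0.69 (the call of Dpp6 was lost without Het replicate 7 and without Hom replicate 9), while Kcnip4, another partner of these channels, fell by 0.98 ± 0.18 (adjusted p = 0.00477). Kcnk2, a two-pore leak channel, rose by 1.11 ± 0.30 (adjusted p = 0.0339), a call lost without each of 7 single arrays (all but Hom 10). Among the potassium channels, 4 of 21 were higher and 2 lower. The glutamate receptor Gria1 stood at 7.64, 6.75, 7.26 and 7.52 in Hom, against 6.46, 5.24, 5.59 and 5.64 in Het, and rose by 1.56 ± 0.32 (adjusted p = 0.00797) with no overlap. The acid-sensing channel Asic2 and the kainate receptor Grik5 rose by 0.88 and 0.83, calls lost without 5 and 3 single arrays, so that 3 of 15 ligand-gated channels were higher. Scn1a and Scn2b, sodium channel subunits, rose by 0.55 and 0.51 of 18 sodium and calcium channels measured, but each call was lost without 6 or 7 of the single arrays.

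Components of the synaptic vesicle split by direction. Syp (synaptophysin), Syn1 (synapsin 1) and the vesicle GTPase Rab3c rose by 0.49, 0.51 and 0.51 (adjusted p = 0.00967, 0.0276 and 0.00795). For Syn1, Het against Wt was -0.54 (adjusted p = 0.0298) and Hom against Wt -0.03 (adjusted p = 0.924), so that Het was the low group. Rab3c in Hom exceeded Wt by 0.84 (adjusted p = 5.69e-05). Of the synaptotagmins, the calcium sensors of release, Syt9 fell by 1.03 ± 0.12 (adjusted p = 0.000225), Syt4 by 0.57 ± 0.08 (adjusted p = 0.000622) and Syt1 by 0.70 ± 0.21 (adjusted p = 0.0498). Syt9 stood at 8.91, 9.47, 8.95 and 9.22 in Hom, at 10.17, 10.10, 10.21 and 10.18 in Het and at a mean of 10.67 ± 0.23 (SD, n = 4) in Wt. Rab3b fell by 0.37, a call lost without each of 4 single arrays. The call of Syt1 was lost without each of 5 single arrays and that of Syn1 without each of 5, while those of Syt9, Syt4, Syp and Rab3c held in all 8 fits.

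Receptors for transmitters and lipids also split. Of 8 measured, 2 were higher (25%), 2 were lower (25%) and 4 were not called. Ptger3, a prostaglandin E2 receptor that couples to the inhibitory G protein, stood at 8.50, 8.41, 8.24 and 8.65 in Hom, at 6.60, 7.36, 6.59 and 6.10 in Het and at 5.33, 5.51, 5.43 and 4.90 in Wt. It rose by 1.79 ± 0.22 (adjusted p = 0.000297). Cnr1, the cannabinoid receptor of neurons, stood at 9.42, 9.03, 9.85 and 9.69 in Hom, at 8.33, 8.81, 8.01 and 8.26 in Het and at 5.81, 6.26, 5.71 and 6.66 in Wt, and rose by 1.15 ± 0.22 (adjusted p = 0.00554). Both were ordered Hom, Het, Wt with no overlap. Npy1r, a receptor of neuropeptide Y, fell by 1.02 ± 0.25 (adjusted p = 0.0224), and Oprl1, the nociceptin receptor, by 0.86 ± 0.15 (adjusted p = 0.00306). The call of Npy1r was lost without Het replicate 6 and without Het replicate 8.

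**Figure D5:**
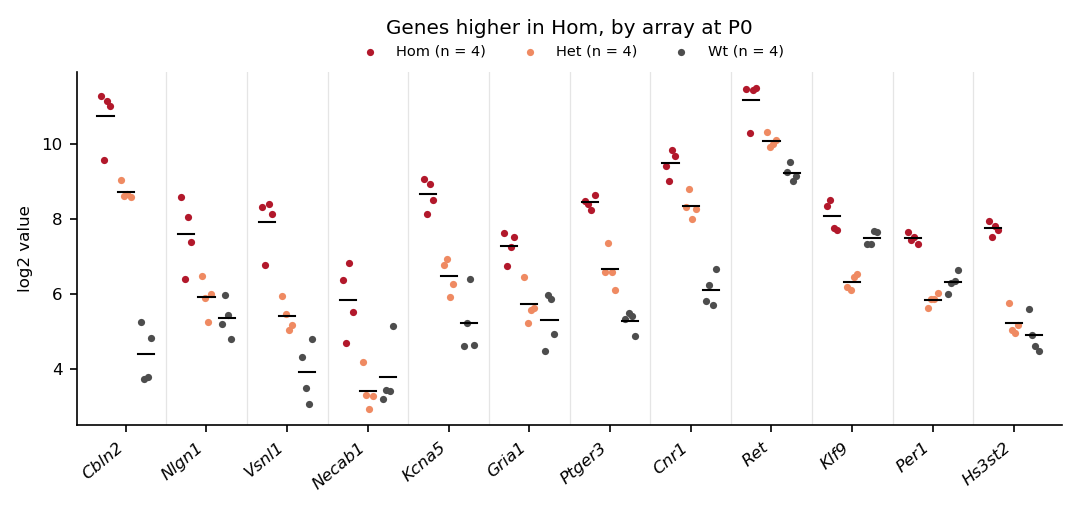
Log2 values of 12 genes called higher in Hom than in Het ganglia, by P0 array (points) with group means (lines), Hom left, Het in the middle and Wt right, n = 4 each. The means of Cbln2, Vsnl1, Kcna5, Ptger3, Cnr1 and Ret step up by genotype, while Klf9 is lowest in Het, and Hom replicate 10 is the lowest Hom array for Cbln2, Nlgn1 and Ret.

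The targeted gene itself differed little between the mutants. Alk stood at 9.63, 9.17, 9.52 and 9.46 in Hom, against 9.23, 9.06, 9.12 and 9.12 in Het and 8.31, 8.39, 8.60 and 8.50 in Wt, a difference of 0.31 ± 0.17 between Hom and Het (adjusted p = 0.303) with Hom replicate 10 inside the Het range. The probe set does not tell the mutant transcript from the normal one. Ret, the receptor of the GDNF family of ligands, stood at 11.46, 10.31, 11.44 and 11.50 in Hom, at 10.32, 9.94, 9.99 and 10.10 in Het and at 9.26, 9.51, 9.02 and 9.14 in Wt, and rose by 1.09 ± 0.23 (adjusted p = 0.0106). Hom replicate 10 lay within the Het range. The call of Ret held in all 8 fits without 1 array but not in the methods' t-test. The co-receptor Gfra3 differed by 0.14 (adjusted p = 0.731).

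Downstream of such receptors, Dusp6 and Spry2, feedback inhibitors that ERK signalling induces, rose by 0.86 ± 0.15 and 0.76 ± 0.22 (adjusted p = 0.003 and 0.0476), 2 of 12 genes of an ERK response list with a median of 0.35. Dusp6 lay between 10.33 and 10.77 in Hom and between 9.62 and 9.85 in Het, without overlap. For Spry2, Hom replicate 10 lay inside the Het range at 6.89, and the call was lost without each of 7 single arrays (all but Hom 10).

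None of the neuropeptides Cartpt, Sst, Npy and Vip was called between Hom and Het. Cartpt, a peptide precursor, stood at 12.21, 12.52, 12.20 and 12.52 in Hom, at 12.31, 12.23, 12.69 and 12.41 in Het and at 8.72, 9.25, 9.47 and 8.86 in Wt, a difference of -0.05 ± 0.19 between the mutants (adjusted p = 0.915). Sst (somatostatin) ranged widely, with 10.02, 5.92, 9.42 and 7.97 in Hom against 7.57, 7.27, 6.14 and 6.88 in Het, and differed by 1.37 ± 0.78 (adjusted p = 0.314). Npy (neuropeptide Y) differed by -0.68 ± 0.32 (adjusted p = 0.224) and Vip (vasoactive intestinal peptide) by -0.07 ± 0.71 (adjusted p = 0.97). The standard errors of Sst and Vip were about 4 times that of Cartpt, so that larger differences could go uncalled in them.

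Vgf, a granule peptide induced by growth factors, rose by 0.68 ± 0.18 in Hom against Het (adjusted p = 0.0315). It lay between 9.53 and 9.96 in Hom, 8.79 and 9.48 in Het, and 9.15 and 10.05 in Wt. Hom against Wt was not called for Vgf (0.18, adjusted p = 0.636). The call of Vgf against Het was lost without each of 5 single arrays (Het 6, 7 and 8, Hom 9 and 11). Cpe, the enzyme that trims peptide precursors, and the granule protein Scg3 fell by 0.24 and 0.31 (adjusted p = 0.0146 and 0.0384), and the call of Scg3 was lost without each of 7 single arrays. Of 22 measured neuropeptide and granule genes, 1 was higher (4.5%), 3 were lower (13.6%), Chgb among them, and 18 were not called. Ache, which degrades acetylcholine, rose by 0.82 ± 0.21 (adjusted p = 0.0272), 1 of 6 cholinergic genes measured, a call lost without each of 6 single arrays.

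Among regulators of development, Shox2, a homeobox factor, stood at 7.87, 7.33, 7.95 and 6.95 in Hom, at 6.18, 6.08, 5.48 and 5.36 in Het and at 3.02, 2.77, 3.08 and 2.60 in Wt. It rose by 1.75 ± 0.24 (adjusted p = 0.000541) and the 3 genotypes did not overlap. Hes5, a Notch target of precursors, fell by 0.97 ± 0.25 (adjusted p = 0.0309), but Hom values of 2.69 to 3.12 lay near the bottom of the scale and the call was lost without each of 5 single arrays. At P0 Hes5 exceeded the filter level of 4 only on Het arrays (up to 4.28), the group where it was high. Hoxc4 fell by 0.49 ± 0.08 (adjusted p = 0.00162). Of 22 SOX, bHLH and Notch genes Hes5 was the only called gene, and of 9 Hox genes Hoxc4.

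In axon guidance, Robo1, the Slit receptor, stood at 9.24, 6.51, 8.67 and 7.96 in Hom, against 6.53, 6.30, 6.01 and 6.40 in Het. It rose by 1.78 ± 0.45 (adjusted p = 0.0267) with Hom replicate 10 inside the Het range, and lost its call without each of 5 single arrays. Efnb2 (ephrin B2), Plxnb1 (a semaphorin receptor) and Nrp1 (neuropilin 1) fell by 0.83, 0.62 and 0.39, and of these the call of Nrp1 held in all 8 fits. Of 32 guidance genes 1 was higher and 3 were lower, which is 3.1% and 9.4% of them. The largest rise of the guidance list, 2.74, belonged to a gene that was not called. Nefl, the light neurofilament, rose by 0.37 (adjusted p = 0.0433), a call lost without each of 6 single arrays. It was the only called gene of 24 in its list, of which 20 had a negative difference (median -0.10) and 7 (29.2%) had all Hom arrays below all Het arrays, against 8.68% of all genes.

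The largest rises by difference included genes of no common list. Car10, a catalytically inactive relative of the carbonic anhydrases that binds neurexins, stood at 7.19, 4.79, 6.79 and 7.52 in Hom, at 3.07, 2.68, 3.06 and 3.47 in Het and at 3.74, 3.38, 2.43 and 7.51 in Wt. It rose by 3.50 ± 0.81 (adjusted p = 0.017), with 1 Wt array as high as Hom, and the call was lost without Het replicate 6 and without Hom replicate 9. Outside Hom, Car10 exceeded the filter level of 4 at P0 only on that Wt array. Tmem150c, a membrane protein that modulates mechanically gated currents, stood at 7.53, 5.33, 7.38 and 7.38 in Hom against 4.03, 3.85, 3.50 and 3.78 in Het, and rose by 3.12 ± 0.45 (adjusted p = 0.000762). Mrap2, an accessory protein of melanocortin receptors, stood at 5.96, 4.07, 5.23 and 6.27 in Hom against 2.76, 2.66, 2.63 and 2.63 in Het, where it was near the bottom of the scale.

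Hs3st2, a heparan sulfate sulfotransferase whose promoter stretch stands above, separated all Hom from all Het arrays. It stood at 7.96, 7.54, 7.82 and 7.71 in Hom, at 5.76, 5.05, 4.96 and 5.18 in Het and at 5.60, 4.93, 4.63 and 4.49 in Wt, and rose by 2.52 ± 0.23 (adjusted p = 2.49e-05), while Het against Wt was not called (adjusted p = 0.491). Igsf5, an immunoglobulin-family junction protein, stood at 6.62, 6.74, 6.21 and 7.02 in Hom, at 4.15, 4.26, 4.21 and 4.88 in Het and at 2.91, 2.76, 2.10 and 2.19 in Wt. It rose by 2.27 ± 0.22 in Hom against Het (adjusted p = 3.81e-05) and by 1.89 in Het against Wt (adjusted p = 0.000215). With Pcdh17, a protocadherin that rose by 1.35 ± 0.27 (adjusted p = 0.00728), Pcdh9, Cldn1 and Pkp4 it made 5 higher members of 24 cadherins, protocadherins and junction genes, and the cadherin Cdh8 fell by 0.94 ± 0.18 (adjusted p = 0.00567). The calls of Cldn1 and Pkp4 were lost without 7 and 5 of the single arrays. Adamts3, Adh1, Lhfpl3, Rnf182 and the gene AI593442 completed the largest rises, between 2.26 and 2.52. The Het mean of each was below 4, the level used to filter dim genes. Rnf182 exceeded 4 at P0 only on Hom arrays, with maxima of 3.51 in Het and 2.64 in Wt. Outside Hom, Adamts3 exceeded 4 at P0 only on Wt replicate 1 (5.31) and Lhfpl3 only on Wt replicate 4 (4.03). Rnf182, Adamts3 and Lhfpl3 thus met the filter's 2 arrays at P0 only through Hom, where they were high. The call of Adh1 was lost without Het replicate 5 and without Het replicate 6, and Adh1 at 8.01 in Hom replicate 10 lay far above the 5.32 to 5.36 of the other Hom arrays.

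The largest falls included other genes of no common list. Mcf2 stood at 6.24, 6.08, 5.81 and 5.86 in Hom, at 7.86, 7.48, 7.63 and 7.64 in Het and at 7.93, 8.16, 7.54 and 7.89 in Wt. It fell by 1.66 ± 0.14 (adjusted p = 1.43e-05), with Het against Wt at -0.23 (adjusted p = 0.408). Mterf1a, a mitochondrial termination factor, and Galntl6 fell by 1.65 and 1.63. Palmd, Mctp1, Pde9a (a cGMP phosphodiesterase) and Ss18 (a subunit of chromatin remodelling complexes) fell by 1.43, 1.42, 1.35 and 1.57, and in each of them Hom replicate 12 was the lowest Hom array, at 5.34, 6.65, 4.75 and 4.13. Without that array Palmd fell by 0.88, Mctp1 by 1.03, Pde9a by 0.89 and Ss18 by 0.99, each still called. The calls of Palmd and Ss18 were lost without each of 5 single arrays, and in each case they were lost without Hom replicate 9. Fam184b, Mgat4c and Tox3 fell by 1.46, 1.42 and 1.29. The call of Fam184b was lost without each of the 4 Het arrays, and its fall was 0.95 without Hom replicate 10. The call of Mgat4c was lost without Het replicate 6 and that of Tox3 without Hom replicate 9. Outside Het, Mgat4c exceeded the filter level of 4 at P0 only on Wt replicate 4 (4.51).

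Of 13 genes known to respond to glucocorticoids 3 rose (23.1%, against 4.14% of all genes) and 0 fell. Per1, a clock gene, stood at 7.67, 7.45, 7.54 and 7.34 in Hom, at 5.63, 5.89, 5.88 and 6.04 in Het and at 6.01, 6.30, 6.36 and 6.64 in Wt, and rose by 1.64 ± 0.14 (adjusted p = 1.49e-05). Klf9, a Krüppel-like transcription factor, stood at 8.35, 8.52, 7.76 and 7.71 in Hom, at 6.20, 6.12, 6.47 and 6.53 in Het and at 7.33, 7.33, 7.69 and 7.65 in Wt, and rose by 1.75 ± 0.17 (adjusted p = 3.81e-05). For Klf9 the Het arrays were the lowest of the 3 genotypes, since Het was lower than Wt by 1.17 (adjusted p = 0.00126). Zbtb16 rose by 1.11 ± 0.19 (adjusted p = 0.003), although its Hom values of 3.13 to 3.89 were below 4.

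Fkbp5, Tsc22d3 and Sgk1, which belong to the same list, differed by 0.07, -0.14 and 0.14 (adjusted p = 0.734, 0.737 and 0.548). Other uncalled members moved more, and the largest rise of the list, 2.56, was not called. At an unadjusted p under 0.05 (limma), 6 of the 13 were higher and 0 lower. All Hom arrays lay above all Het arrays for 5 members (38.5%), against 7.46% of all genes. The calls of Per1, Klf9 and Zbtb16 held in all 8 fits without 1 array. The median over the 13 members was 0.32, and the methods' t-test also called 3. Klf15, a Krüppel-like factor outside that list, stood at 5.61, 5.86, 4.69 and 5.17 in Hom, against 2.69, 3.35, 2.66 and 2.79 in Het. It rose by 2.46 ± 0.26 (adjusted p = 6.57e-05), and its Het arrays were all below 4. Depp1 and Slc10a6, a steroid sulfate transporter, also outside the list and chosen after their values were seen, rose by 1.94 and 1.85.

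4 genes of the insulin-like growth factor axis rose. Irs2, an adaptor of the insulin and IGF receptors, stood at 8.18, 7.49, 8.33 and 7.94 in Hom, at 6.97, 6.66, 7.01 and 6.73 in Het and at 6.67, 6.33, 6.33 and 6.20 in Wt, and rose by 1.14 ± 0.21 (adjusted p = 0.00445). Igfbp3, a binding protein of IGFs, lay between 8.79 and 9.24 in Hom and between 7.91 and 8.52 in Het and rose by 0.92 ± 0.14 (adjusted p = 0.00117). The growth factor Igf1 and Igfbp4 rose by 0.90 and 0.71, but their calls were lost without each of 7 single arrays. Both genes were lower in Het than in Wt by values that were not called (-0.80 and -0.68), and differed from Wt by 0.10 and 0.03 in Hom. Imprinted genes rose in 3 of 17 cases, namely Gnas, Peg3 and Mest by 0.79, 0.65 and 0.54, and the call of Gnas was lost without each of 5 single arrays. Its rise was 0.46 without Hom replicate 9, which stood at 10.09 against 8.57 to 8.90 in the other Hom arrays.

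Genes of other cell types were measured beside these groups. Of 24 fibroblast and matrix genes 4 rose (Thy1 by 1.04, Col6a1 by 1.02, Col12a1 by 0.86 and Col6a3 by 0.81) and 0 fell. The median over the list was 0.45 and 23 of 24 differences were positive, 8 of them at an unadjusted p under 0.05. The summed level of the list ran from 14.53 to 15.49 in Hom, from 14.80 to 15.08 in Het and from 15.08 to 15.90 in Wt. The call of Col6a1 was lost without each of 7 single arrays and that of Col6a3 likewise, that of Thy1 without Het replicate 6 and that of Col12a1 without Het replicate 5 and without Hom replicate 9. Without Hom replicate 12 the list held 8 higher members, and 1 with the fat, muscle and glia lists as covariates. Thy1 is also a surface protein of neurons. Of 15 Schwann cell and satellite glia genes 0 were called (summed level 14.55 to 15.09 in Hom, 14.86 to 14.91 in Het and 14.68 to 15.38 in Wt), and the list's median difference was 0.16. Eng rose by 0.88 ± 0.14 (adjusted p = 0.00165), 1 of 14 endothelial genes, of which 12 had a positive difference (median 0.38). Their summed level ran from 9.67 to 9.87 in Hom, from 9.04 to 9.75 in Het and from 9.52 to 10.21 in Wt. The part of these lists in the differences of neuronal genes was not tested.

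Fat and skeletal muscle genes varied widely between arrays. Their lists held 0 calls of 8 and 0 of 18, with medians of 0.62 and 0.33. The summed level of the fat list was 15.11 in Hom replicate 10 and ran from 11.50 to 12.05 in the other Hom arrays, against 10.86 to 12.64 in Het and 12.87 to 13.85 in Wt. For muscle it ran from 10.02 to 12.25 in Hom, from 8.59 to 12.84 in Het and from 8.16 to 15.13 in Wt. With the medians of the fat, muscle and glia lists as covariates, 526 genes were called, of which 430 were among the 737, and 8 lower members were called in the noradrenergic list and 7 in the ribosome biogenesis list. Their part in the single differences was not tested.

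Macrophage (0 of 16), mural cell (0 of 11) and sensory neuron (0 of 6) lists held no calls, while the chromaffin and carotid body list held 2 falls of 12, Chgb and Phox2a, both of which also belong to the noradrenergic list. A pair of mast cell genes stood out after their values were seen: Cpa3, a mast cell carboxypeptidase, stood at 6.59, 7.48, 7.25 and 5.80 in Hom, at 2.94, 5.52, 4.55 and 4.65 in Het and at 6.48, 6.56, 7.32 and 6.39 in Wt, and rose by 2.37 ± 0.44 (adjusted p = 0.00502). Cma1, the mast cell chymase, rose by 2.19 ± 0.38 (adjusted p = 0.003). Hom differed from Wt by 0.10 in Cpa3 and by 0.05 in Cma1 (adjusted p = 0.939 and 0.966), so that Het was the low group. Of 9 mast cell genes on the array only these 2 passed the filter, and Fcer1a, Ms4a2 and Tpsb2 lay below 2.2 on every P0 array. Of 16 genes of RNA quality and stress, Trib3 alone was called (1.20 ± 0.35, adjusted p = 0.0494), and it lost the call without each of 6 single arrays. At P0 Trib3 exceeded the filter level of 4 only on Hom arrays (up to 4.74), the group where it was high.

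Genes within 5000000 bases of Alk on chromosome 17 were read because the flanks of a knock-in allele travel with it. Of 29 measured genes 4 were higher and 2 lower in Hom, 13.8% and 6.9% of them. Akain1, an anchoring protein inhibitor, stood at 6.09, 5.81, 6.30 and 6.94 in Hom, at 4.27, 3.97, 4.27 and 3.89 in Het and at 3.55, 4.66, 3.75 and 3.44 in Wt, and rose by 2.18 ± 0.27 (adjusted p = 0.000297). Emilin2, an extracellular matrix protein, rose by 1.61 ± 0.32 (adjusted p = 0.00735) and Ltbp1, which binds latent TGF-beta, rose to between 7.24 and 8.36 in Hom, against 6.55 to 7.04 in Het (adjusted p = 0.0155). Clip4 rose by 0.45. The calls of Ltbp1 and Clip4 were lost without 2 and 3 of the single arrays. Spast, a microtubule-severing enzyme, lay between 9.59 and 9.83 in Hom and between 10.07 and 10.13 in Het and fell by 0.41 ± 0.07 (adjusted p = 0.00415), and Wdr43, named above, fell by 0.51. Het against Wt was not called for Akain1, Emilin2 or Spast (adjusted p = 0.678, 0.85 and 0.812). The part of the flanking sequence in these differences was not tested.

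Some called genes lay outside the range between Wt and Hom. Klf9, Cpa3, Cma1, Adh1, Syn1, Col6a1 and Thy1 had all Het arrays below those of both other genotypes. Oprl1, Chgb, Polr1b, Efnb2 and Plxnb1 had all Het arrays above both. These are examples, and the called genes with such a pattern were not counted. Gpc2, a glypican of developing neurons named after its values were seen, also had all Het arrays above both. It stood at 7.42, 7.75, 7.53 and 7.39 in Hom, at 8.48, 8.66, 8.59 and 8.55 in Het and at 7.72, 7.87, 7.23 and 7.28 in Wt. It fell by 1.05 ± 0.20 in Hom against Het (adjusted p = 0.00594) and was higher in Het than in Wt by 1.04 (adjusted p = 0.00997). Hom, Het and Wt contrasts share arrays, so these values stand side by side without a test of the pattern.

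Arrays at P18 shared none with the 8 compared at P0. Between P0 and P18 in Wt ganglia, 2783 genes (27.9%) rose and 2697 (27%) fell. Of the 413 genes higher in Hom, 183 (44.3%) rose and 93 (22.5%) fell with stage, and of the 324 genes lower in Hom, 61 (18.8%) rose and 167 (51.5%) fell. The median stage difference was 0.26 for the higher genes and -0.38 for the lower ones, against 0.01 over all genes tested. Across the 737 genes the Pearson correlation of both differences was 0.24 and Spearman's 0.21, and across all 9973 genes 0.06 and 0.11, where genes are not independent replicates. Stage cannot be told apart from any batch that followed it.

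The groups split on that axis. Ribosome biogenesis genes fell with stage in 19 of 32 cases and rose in 0, and Mycn fell by 1.79 ± 0.17 (adjusted p = 4.07e-07). Hmx1 fell with stage by 1.23 ± 0.11 (adjusted p = 1.41e-07), to a Wt mean of 9.66 at P18. Th, Ddc and Slc6a2 rose with stage by 1.20, 0.84 and 0.84 (adjusted p = 2.21e-06, 6.6e-05 and 0.00376), opposite to their direction in Hom against Het. Vsnl1, Hs3st2 and Klf9 rose with stage by 2.86, 1.97 and 1.94, and Cbln2 fell by 1.51 (adjusted p = 0.00397). Of the 20 noradrenergic genes 11 rose and 7 fell with stage.

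In Het against Wt ganglia at P18, 21 genes (0.211%) were higher and 5 (0.0501%) lower over all genes tested, with 2 Het arrays. Of the 413 genes higher in Hom at P0, 6 were among those higher (1.45%), and of the 324 lower genes 0 were called. These 6, named after their values were seen, were Ccn3, Shox2, Nwd2, Rassf4, Iqgap2 and Tenm3, and the P0 calls of Iqgap2 and Tenm3 were lost without 6 and 3 of the single arrays. Ccn3, a matricellular protein, stood at 11.68, 11.10, 11.93 and 11.66 in Hom, against 10.32, 9.91, 9.69 and 10.06 in Het at P0, a rise of 1.60 ± 0.23 (adjusted p = 0.000762), and exceeded Wt by 1.85 ± 0.29 (adjusted p = 0.0138) in Het at P18. Shox2 exceeded Wt by 1.56 ± 0.31 (adjusted p = 0.0474) at P18. Nwd2 rose by 1.31 ± 0.21 in Hom at P0 and exceeded Wt by 1.52 in Het at P18 (adjusted p = 0.0288).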

How the data were processed

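The deposited values of the 17 arrays are log2 expression levels per gene, which the authors obtained by GCRMA (version not given in the sources used here) with Brainarray annotation. They lie between 1.47 and 15.36. It is not stated which arrays went into 1 normalization run. The labels name the miRNeasy kit, while the methods give Trizol for ganglia, so the extraction is not settled. Of 17306 probe sets, 16464 had 1 gene symbol, 0 had several and 842 had none and are not named here. The filter left 9973, of which 9545 were named. It counted the Hom and Het arrays too, so a gene could enter through the group where it was high. Of the genes called higher in Hom, 63 had a Het mean under 4, and of those called lower, 17 had a Hom mean under 4.

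With limma 3.58.1 (R 4.3.3) a mean was estimated for each group from all 17 arrays, with trended, robust moderated variances. Two-sided p-values were adjusted by Benjamini-Hochberg over the genes kept, and calls were made under 0.05. Differences are Hom minus Het ± SE of the fit. A list's summed level is the log2 of its members' summed linear values. The fit was also run on simulated data, but no outcome of that run is given here. The simulated run is therefore no evidence of how the fit behaves under the unequal spread of the Hom and Het arrays. The number of arrays limits the precision. Promoter windows came from RefSeq, build GRCm38.p6.

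Named genes were, among calls without overlap of Hom and Het arrays, the 14 with the highest and the 14 with the lowest difference, up to 2 rises and 2 falls per list, and 15 fixed genes, of which 2 had no tested value. Other genes were named after their values were seen. The members and lists were chosen with earlier results of these data known. Alternatives changed the filter, variance model, scaling, arrays fitted, array weights, covariates and the test (the methods' t-test).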

Additional observations from a re-analysis of the deposited data

Results flagged for a closer look

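In 19 of the 176 groups of 4 arrays that were read (10.8%), for the named genes in Hom and in Het ganglia at P0, 1 array lay so far from the other 3 that its gap passed the critical value of Dixon's test, where chance flags about 1 group in 20. The part of each array in these flags was not tested.

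Hom replicate 10 was the far array in 10 of them. It was low for Cbln2 at 9.59 (the other Hom arrays at 11.01 to 11.30), Ret at 10.31 (11.44 to 11.50), Tmem150c at 5.33 (7.38 to 7.53), Trib3 at 2.74 (4.52 to 4.74), Scn2b at 7.13 (7.75 to 7.88) and Hoxc4 at 9.89 (10.11 to 10.14). It was high for Adh1 at 8.01 (5.32 to 5.36), Tox3 at 7.76 (6.72 to 6.82), Cdh8 at 5.60 (4.86 to 4.92) and Mgat4c at 2.98 (2.36 to 2.42). For each of these genes but Adh1 and Hoxc4 the value lay closer to the Het arrays than those of the other Hom arrays did. The other far Hom arrays were replicate 12 for Pde9a, low at 4.75 (6.56 to 6.58), and replicate 9 for Gfra3, high at 9.16 (8.29 to 8.42).

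Among the Het arrays, replicate 5 was high for Cbln2 at 9.06 (8.59 to 8.66) and for Cdh8 at 6.26 (5.90 to 5.94). Replicate 6 was low for Col6a1 at 8.42 (8.70 to 8.75) and for Ncald at 10.85 (11.12 to 11.16). Replicate 7 was high for Wdr43 at 7.55 (7.28 to 7.31). Replicate 8 was low for Adamts3 at 2.84 (3.69 to 3.81) and high for Igsf5 at 4.88 (4.15 to 4.26).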

How the results depend on the processing

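Each of the 737 genes kept its direction in every alternative that tested it. Alternatives that changed only the filter, the variance model, the test or the other groups fitted leave the difference itself unchanged. Direction could not turn in those, and the fits without single arrays reuse most of the arrays that gave the calls. The number of calls depended on the setting, and the methods' t-test kept 174 of the 737. Called, higher and lower genes numbered 474, 268 and 206 without the filter, 405, 227 and 178 with only the P0 arrays, 2647, 1234 and 1413 with array weights, 224, 99 and 125 in the methods' t-test, 1225, 634 and 591 without Hom replicates 10 and 12, and 191, 144 and 47 at a difference of at least 1 log2 unit. Centring each array on its median gave 570 lower genes and moved the median of all genes to -0.10, and the covariates gave 211 lower genes. Without single arrays the called genes ran from 352 (without Hom replicate 9) to 970 (without Hom replicate 10), the higher ones from 196 to 577 and the lower ones from 156 to 481. Of 81 called named genes, 50 were called in all 8 of these fits.

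Of 3 uncalled genes the sign turned. Cartpt came to 0.013 with quantile normalization and ran from -0.11 to 0.046 without single arrays. Gfra3 ran from -0.054 to 0.24 and Vip from -0.26 to 0.28, with 0.17 for Vip without Hom replicates 10 and 12. The cause was not tested. No paired analysis was possible because the Hom samples are numbered 9 to 12 and the Het samples 5 to 8, so that they share no number. With 4 arrays per group, and genes near the bottom of the scale, small differences could go uncalled.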
